A study of Mus musculus with 2 samples.

Results

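The EGF receptor family and its ligands were read in the mouse line 14837, derived per the labels from pancreatic ductal adenocarcinoma (PDAC) on the C57BL/6 background. The genes are 7 ligands (Egf, Tgfa, Areg, Epgn, Hbegf, Btc and Ereg) and 3 receptors (Egfr, Erbb2 and Erbb3), which are 10 of the 21983 gene entries of the deposited table and were picked by symbol. The labels describe 2 libraries, each from 14837 cells kept for 48 h in conditioned medium, which is medium that other cells have grown in. In 1 group the medium came from CAFs (cancer-associated fibroblasts, the stromal cells of the tumour) and in the other from 14837 cells themselves. Both groups were the same line and shared a base medium of DMEM to which serum (FBS, 10%) and penicillin (100 U/ml) were added, and the labels name no engineered allele or drug. The series' title names nucleosides given off by the tumour's surroundings as its subject. The name of 1 value column matched the CAF-medium library. The other column's name matched neither library, so it was not used, and all values below are levels in the CAF-medium library alone. They give the standing of the family's genes after CAF medium, with no measure of what that medium changed.

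Ligands of the EGF family are made as membrane-anchored precursors, and proteases of the ADAM family cut them free. A released ligand binds the outer part of EGFR or ERBB4, which then pairs with another receptor of the family and switches on its kinase. ERBB2 binds no known ligand and acts as a partner, while ERBB3 binds neuregulins and has little kinase activity of its own. The adaptors GRB2 and SHC1, together with SOS1, carry the signal to RAS, which is usually mutated in pancreatic ductal cancer. In the pancreas, EGFR and TGFA are known for their part in the change of acinar cells into duct-like cells.

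Every ligand carries the EGF-like motif, 6 cysteines at fixed distances that fold into the loops that bind the receptor. The coding stretch from the first to the last cysteine codon is shown for 6 of the ligands, because it is what makes them 1 family while their levels lie far apart. The sequences are from the GENCODE M21 transcripts of mm10, 5′ to 3′ on the coding strand, with the cysteine codons in capitals.
Areg: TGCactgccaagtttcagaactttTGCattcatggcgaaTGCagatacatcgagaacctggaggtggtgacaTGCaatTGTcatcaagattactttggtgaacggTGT
Ereg: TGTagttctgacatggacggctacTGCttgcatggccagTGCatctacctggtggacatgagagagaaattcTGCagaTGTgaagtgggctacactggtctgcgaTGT
Btc: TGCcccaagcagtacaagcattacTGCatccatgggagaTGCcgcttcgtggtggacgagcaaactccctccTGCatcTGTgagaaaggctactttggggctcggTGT
Tgfa: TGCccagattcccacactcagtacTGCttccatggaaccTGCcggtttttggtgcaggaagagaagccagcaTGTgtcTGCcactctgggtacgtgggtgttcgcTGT
Egf: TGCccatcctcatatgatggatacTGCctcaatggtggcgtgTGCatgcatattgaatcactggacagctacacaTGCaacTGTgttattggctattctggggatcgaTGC
Epgn: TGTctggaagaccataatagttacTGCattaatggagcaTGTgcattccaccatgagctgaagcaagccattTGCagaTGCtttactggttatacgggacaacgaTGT

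These stretches lie, introns included, at chr5:91143614-91144364 (plus strand, Areg), chr5:91088496-91089111 (plus, Ereg), chr5:91362421-91366197 (minus, Btc), chr6:86263200-86269960 (plus, Tgfa), chr3:129686322-129690850 (minus, Egf) and chr5:91031152-91032237 (plus, Epgn). The search allowed only cysteine gaps close to those given next, so EGF-like repeats with other spacing, in Egf or elsewhere, would be missed. In that form the motif was found 1 time in the longest coding sequence of each of the 7 ligands, Hbegf included. In 6 ligands the cysteines were 7, 4, 10, 1 and 8 codons apart, over 108 bases. Egf alone had 5 codons in the second gap, over 111 bases, and its motif started at codon 982 of 1217, near the end of a long precursor. In Areg it started at codon 139 of 248, and in Tgfa at codon 46 of 159.

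The library held 21269197 counts. Of all entries, 11569 (52.6%) had at least 10 counts, and the median gene among those stood at 37.9 counts per 1000000 counts (CPM) or 8.14 CPM per kilobase of all its exons. There was no replicate, so no test was made, and bracketed values are exact Poisson 95% intervals that cover counting error only. For a count of 0, counting error by itself allows up to 3 counts, or 0.141 CPM, as a one-sided limit (the two-sided Poisson interval reaches 0.173 CPM). The respiratory genes Atp5a1 and Uqcrc1 are also listed at 0, so neither limit bounds a gene listed at 0, and none is called silent here. Of 8 ductal epithelial marker genes, 7 had 10 counts or more, and the 8 summed to 4032 CPM, of which Krt18 held 1819. The exception was Epcam, an epithelial adhesion gene, at 2 counts. Sox9, at 17.2 CPM, was also below the median gene. Of 8 fibroblast markers, 4 were listed at 0 (Col1a2, Col3a1, Dcn and Lum), and the sum of 35.8 CPM was nearly all Pdgfra at 34.2 CPM. Sums were 5.83 CPM over 6 leukocyte markers, 0.423 CPM over 4 endothelial ones and 0.47 CPM over 5 acinar ones, and the part of other cells in the values below was not tested.

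The family was uneven, with 3 ligands far up and Egfr well below the median gene. Of the 10 genes, 9 had at least 10 counts, against 52.6% of all entries, and Epgn was the exception. By CPM 6 of 10 exceeded the median gene, and per kilobase of all exons 5 of 10 did. The 10 genes together held 22886 counts, or 0.108% of the library, of which the 7 ligands held 20779 and the 3 receptors 2107.

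Amphiregulin, Areg, an EGFR ligand made by many epithelia in repair and in tumours, had 6392 counts, or 301 CPM (293 to 308). Hbegf, the heparin-binding ligand of EGFR and ERBB4, had 6264 counts, or 295 CPM (287 to 302). Epiregulin, Ereg, which also binds both receptors, had 5151 counts, or 242 CPM (236 to 249). Per kilobase of all exons these genes lay at percentiles 99.1 (Areg), 93.2 (Hbegf) and 92.9 (Ereg) of the genes with at least 10 counts. They were the high group of the family, and together they made up 93.1% of the summed ligand level per kilobase of all exons. Per kilobase of coding sequence they made up 83.7%.

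Betacellulin, Btc, the other ligand of EGFR and ERBB4, stood lower at 1816 counts, or 85.4 CPM (81.5 to 89.4). Transforming growth factor alpha, Tgfa, was at 1076 counts, or 50.6 CPM (47.6 to 53.7), with 7.8 CPM per kilobase of all exons against 8.14 for the median gene. Per kilobase of coding sequence Tgfa was well above it, at 106 against 25.4. All 3 ligands that can bind ERBB4 exceeded the median gene by CPM and per kilobase. By CPM and per kilobase of all exons, the 4 that bind EGFR only spanned the whole range from Areg to Epgn. A difference between the 3 and the 4 was not tested. Egf, the founding ligand, made mainly in kidney and salivary gland, had 77 counts, or 3.62 CPM (2.86 to 4.52). Epigen, Epgn, was the lowest of the 10, at 3 counts or 0.141 CPM (0.029 to 0.412). Egf lay at percentile 5.53 per kilobase, and neighbouring genes (6330410L21Rik and Gm42697) overlap 9.82% of its exonic bases, whose reads cannot be told apart from those of Egf if strand was not used.

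**Figure D1:**
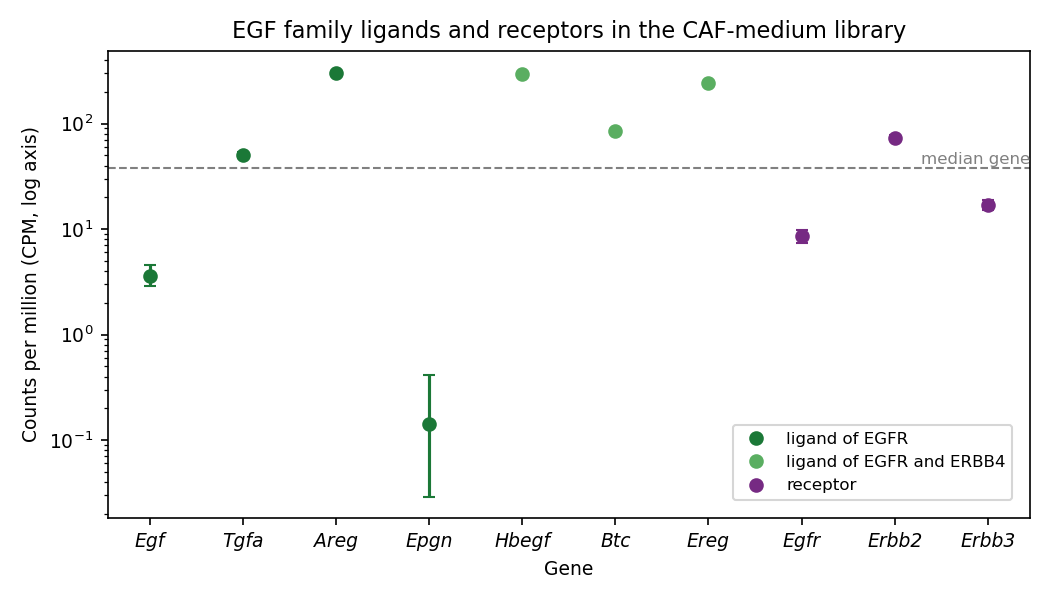
CPM on a log axis for the 7 ligands and 3 receptors in the single CAF-medium library, with exact Poisson 95% intervals (counting error only, mostly smaller than the points) and the median gene, 37.9 CPM, as a dashed line. Areg, Hbegf and Ereg lie between 242 and 301 CPM, and Epgn lies at 0.141 CPM with the widest interval.

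The receptors were ordered Erbb2, Erbb3 and Egfr, and Erbb2 alone among them exceeded the median gene by CPM. Erbb2 had 1564 counts, or 73.5 CPM (69.9 to 77.3), and 14.1 CPM per kilobase. Erbb3 had 362 counts, or 17 CPM (15.3 to 18.9), and 2.83 CPM per kilobase. Egfr had 181 counts, or 8.51 CPM (7.32 to 9.84), and 0.751 CPM per kilobase, which is percentile 11.3 of the genes with at least 10 counts. By count it lay at percentile 21.4 of those genes. Among all entries, of which 8056 were listed at 0, it lay at percentile 58.6. Erbb2 made up 79.8% of the summed receptor level per kilobase, Erbb3 15.99% and Egfr 4.25%. The receptor that all 7 ligands can bind was therefore the lowest of the 3 in RNA. Per kilobase of all exons, Erbb3 stood 3.77 times above Egfr (exact binomial 95% interval 3.14 to 4.53), and per kilobase of coding sequence 1.81 times (1.51 to 2.17).

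No searched 64-base window of the longest transcript of Egfr, nor of any of the other 9 genes, was found in transcripts of other genes. The search left out genes whose span overlaps that of the gene in question, and it read the transcript strand only. No other gene overlaps the exons of Egfr. Exon overlap was 0.173% for Erbb2 (with Mien1), 1.82% for Tgfa and 3.42% for Ereg (with Gm19610), and 0 for Areg, Hbegf, Btc, Epgn and Erbb3. How strand was treated in counting is not given in the labels.

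The remaining genes of the family are ERBB4, the fourth receptor, and the neuregulins, ligands of ERBB3 and ERBB4. Erbb4 and Nrg3 were listed at 0. Nrg1, the main neuregulin, had 1157 counts, or 54.4 CPM (51.3 to 57.6), above the median gene by CPM but below it per kilobase of all exons at 5.26. Nrg2 had 76 counts, or 3.57 CPM, and Nrg4 had 13, or 0.611 CPM (0.325 to 1.05), with 8.97% of its exonic bases overlapped by other genes. Of the 5 genes, 3 had at least 10 counts, and none exceeded the median gene per kilobase of all exons. By coding length Nrg1 stood at 25.9 against 25.4 for the median gene, within its counting error. NRG1 is known to signal through ERBB2 and ERBB3, whose genes also had counts in this library.

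Levels of different genes can be compared only per length, and the order then rests on the length chosen. By all exons the order was Areg, Hbegf, Ereg, Btc, Erbb2, Tgfa, Erbb3, Egfr, Egf and Epgn. Areg stood 4.06 times above Hbegf (3.92 to 4.2), at 247 against 60.9 CPM per kilobase. Hbegf and Ereg were hardly apart, at 60.9 and 58.7, a ratio of 1.04 whose interval ran from 1.0007 to 1.078. Ereg stood 3.11 times above Btc, Btc 1.34 times above Erbb2 (1.25 to 1.43) and Erbb2 1.81 times above Tgfa (1.67 to 1.96). Tgfa was 2.76 times above Erbb3, Egfr 2.34 times above Egf (1.78 to 3.1) and Egf 4.11 times above Epgn (1.36 to 20.4). These intervals hold counting error only, and cultures can differ by more.

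The order was the same with the longest transcript, but not with the longest coding sequence. The coding part is a small share of the exons in Ereg, with 486 of 4128 bases, in Tgfa, with 477 of 6490, and in Hbegf, with 624 of 4834. It is a larger share in Areg, with 744 of 1215 bases, and in Egf, with 3651 of 11275. The same whole-gene count was divided by each length, not a count over coding bases. A small coding share therefore by itself raises a gene on the coding scale. Per kilobase of coding sequence Ereg led at 498 CPM, followed by Hbegf at 472 and Areg at 404, and Areg made up 24.6% of the summed ligand level in place of 62.8%. Tgfa came to 106 CPM per kilobase, above Erbb2 at 19.5 and 25 times above Erbb3 (22.2 to 28.3). The ratio of Tgfa over Erbb3 was 2.76 by all exons and 3.95 by the longest transcript. Btc stood 8.24 times above Erbb2 (7.7 to 8.82) by coding length, against 1.34 by all exons and 1.45 by the longest transcript. The order among Areg, Hbegf and Ereg therefore cannot be read from this library, while Btc stayed below them and Epgn stayed last under all 3 lengths. With the longest transcript, Egfr and Egf could not be separated, at a ratio of 1.1 (0.835 to 1.45). The order of the receptors was the same under all 3 lengths, and the summed ligands stood 22.3, 24.1 and 62.9 times above the summed receptors per kilobase with all exons, longest transcript and coding sequence.

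**Figure D2:**
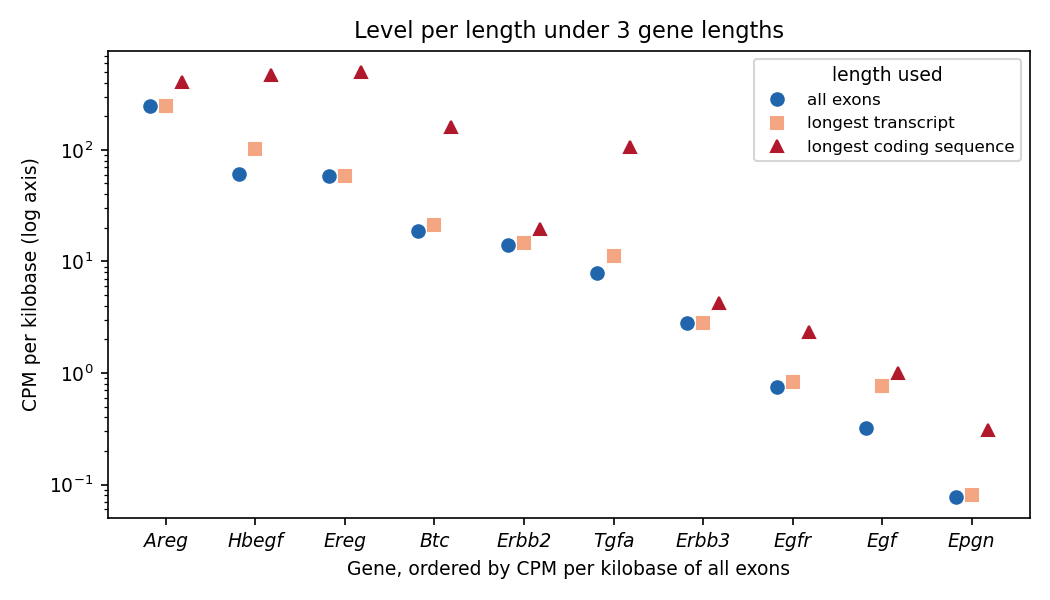
CPM per kilobase on a log axis for the 10 genes, ordered by the level per kilobase of all exons (circles), with the longest transcript (squares) and the longest coding sequence (triangles) beside it. The triangles of Areg, Hbegf and Ereg run from 404 to 498 in the opposite order to the circles, and that of Tgfa, at 106, lies above that of Erbb2.

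Of the 7 ligand genes, 4 lie side by side on mouse chromosome 5 within 376 kilobases (mm10). Epgn (91027464 to 91035215, plus strand), Ereg (91074622 to 91093646, plus) and Areg (91139599 to 91148432, plus) follow each other, with gaps of 39.4 and 46 kilobases. Btc (91357261 to 91402994, minus) lies 209 kilobases beyond Areg, and no other entry of the table that matched the annotation lies between Epgn and Btc. Levels of these neighbours ran from 0.078 (Epgn) through 58.7 (Ereg) and 247 (Areg) to 18.9 (Btc) CPM per kilobase of all exons. The folate enzyme gene Mthfd2l, next to Epgn on the other side, stood at 2.65. The cluster thus held the highest and the lowest of the 10 genes.

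**Figure D3:**
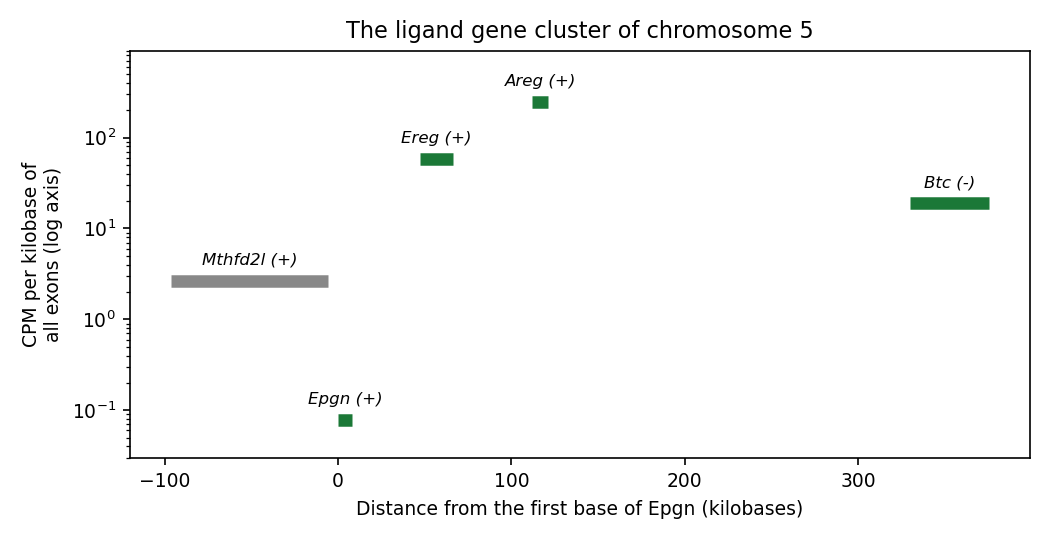
CPM per kilobase of all exons on a log axis against distance in kilobases from the first base of Epgn, with each bar spanning a gene and its strand in brackets, ligands in green and the flanking gene in grey. Epgn lies at 0.078, about 39.4 kilobases from Ereg at 58.7, and Areg is highest at 247.

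The other members are spread over the genome, with Tgfa on chromosome 6 (86195223 to 86275719, plus strand), Egf on chromosome 3 (129677565 to 129755316, minus) and Erbb3 on chromosome 10 (128567523 to 128589652, minus). Egfr (16752203 to 16918158, plus) and Erbb2 (98412470 to 98437716, plus) are both on chromosome 11. Grb7, an adaptor that binds ERBB2 and is often amplified along with it in tumours, starts 8.68 kilobases after Erbb2. Grb7 stood at 22.9 CPM per kilobase of all exons and Erbb2 at 14.1, against 8.14 for the median gene. Per kilobase of coding sequence Grb7 stood at 48.0 and Erbb2 at 19.5, against 25.4 for the median gene. Gene copy number was not tested.

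Promoter sequence is shown for Areg and Btc, neighbours in the cluster with different levels, as the 250 bases before the start site in RefSeq (GRCm38.p6), 5′ to 3′ on the gene's strand. Capitals mark matches on either strand to TATAAA (the TATA box), TGACGTCA (the cyclic AMP response element), TGANTCA and GGGCGG (an SP1 site). TGANTCA, with N any base, is a loose form of the AP-1 site. None of the matches overlap each other here.
Areg, chr5:91139349-91139598, plus strand: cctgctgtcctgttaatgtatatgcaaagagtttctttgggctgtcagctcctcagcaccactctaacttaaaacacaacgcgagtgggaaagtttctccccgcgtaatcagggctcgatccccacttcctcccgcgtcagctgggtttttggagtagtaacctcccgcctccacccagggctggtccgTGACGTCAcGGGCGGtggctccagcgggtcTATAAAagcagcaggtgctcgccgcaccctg
Btc, chr5:91402995-91403244, minus strand: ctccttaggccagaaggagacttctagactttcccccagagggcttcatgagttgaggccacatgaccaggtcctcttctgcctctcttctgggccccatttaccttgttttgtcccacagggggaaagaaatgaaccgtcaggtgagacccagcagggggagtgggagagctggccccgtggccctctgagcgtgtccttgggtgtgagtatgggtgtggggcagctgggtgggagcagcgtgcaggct

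The Areg window held TGACGTCA 61 bases, GGGCGG 52 bases and TATAAA 31 bases before the start, counted to the first base of each match. Among 32851 RefSeq windows of the same length, 1.55% held TGACGTCA, 12.4% TATAAA, 32.7% GGGCGG and 6.75% TGANTCA. None of these letters was in the Btc window. Of the 10 genes, 7 matched an entry in the promoter table, and Ereg, Hbegf and Erbb3 did not. Among the others, Epgn had TATAAA 86 bases before its RefSeq start, Tgfa had GGGCGG 2 times and Egfr 1 time, and Erbb2 and both windows of Egf had no match. A match describes the letters only, and no binding or promoter activity was measured.

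Genes that release the ligands or control that step were mostly above the median gene. Of 10 shedding genes, among them the inhibitor Timp3, 8 had at least 10 counts. Of those 8, 7 exceeded the median gene per kilobase, and the median of the 8 was 16.9 against 8.14. Over all entries, 52.6% had at least 10 counts, which is the share to set beside this list and those below. Adam9, a membrane protease that can cut HBEGF, led at 355 CPM (347 to 364), or 86.4 CPM per kilobase. Adam10, the main protease for EGF and betacellulin precursors, stood at 142 CPM and 28.9 per kilobase. Adam17, which cuts most of the other ligands including amphiregulin and TGFA, stood at 101 CPM (97 to 106) and 14.1 per kilobase. It fell outside the rule for named genes and was chosen after its value was seen. Rhbdf2, which carries ADAM17 to the cell surface, stood at 136 CPM and 25.6 per kilobase. Adam15 followed at 17.5 per kilobase, with 20.6% of its exonic bases overlapped by another gene. Adam12 and Timp3, an inhibitor of ADAM17, were listed at 0.

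Adaptors and effectors at the receptor were close to the middle of all genes. Of 21 genes, 20 had at least 10 counts, their median was 9.01 CPM per kilobase, and 11 of them lay above the median gene. Shc1, which docks on activated EGFR, led at 304 CPM (296 to 311) and 53.8 per kilobase, followed by the adaptor Crk at 53.6. The kinase Src stood at 44.2 and Grb2, the link from receptor to SOS, at 42.5. Pik3r2, a regulatory subunit of PI3-kinase, was listed at 0.

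The genes that take receptors off the surface stood higher, with all 16 at 10 counts or more, 13 above the median gene and a median of 21.3 CPM per kilobase. The lowest of those 13, at 8.16 (7.6 to 8.76), was within counting error of the median gene at 8.14. Epn1, a clathrin adaptor of endocytosis, stood at 80.3 per kilobase, and Hgs, which sorts ubiquitinated receptors toward lysosomes, at 51.1. Cd2ap, a scaffold that binds CBL, had the most counts of the list at 531 CPM. Its level was 33.5 CPM per kilobase of all exons, below Epn1, but 94.7 per kilobase of the longest transcript, above Epn1 at 88.0 (15864 exonic against 5610 transcript bases). Grb2 belongs to this list too.

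Among inhibitors of the receptors, 1 gene stood out. Errfi1 (MIG6), an inhibitor that binds the EGFR kinase and is itself induced by EGFR signalling, had 15888 counts, or 747 CPM (735 to 759). It ranked 117th of all entries by count, at 209 CPM per kilobase. On the same scale it was near Areg, at 247, and far above the receptor it inhibits, Egfr at 0.751. All 10 inhibitors had at least 10 counts and 9 lay above the median gene, and the median of the list was 11.8 CPM per kilobase. The lowest of those 9, at 8.18 (7.82 to 8.54), was within counting error of the median gene at 8.14. Per kilobase of the longest transcript, some of the 9 fell below the median gene, which then stood at 11.1. Lrig1, a membrane protein that lowers receptor levels, stood at 26.5 per kilobase, and the phosphatases Ptpn2 and Ptpn1 at 18.3 and 13.1. A level in 1 library does not show whether the receptors were active.

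**Figure D4:**
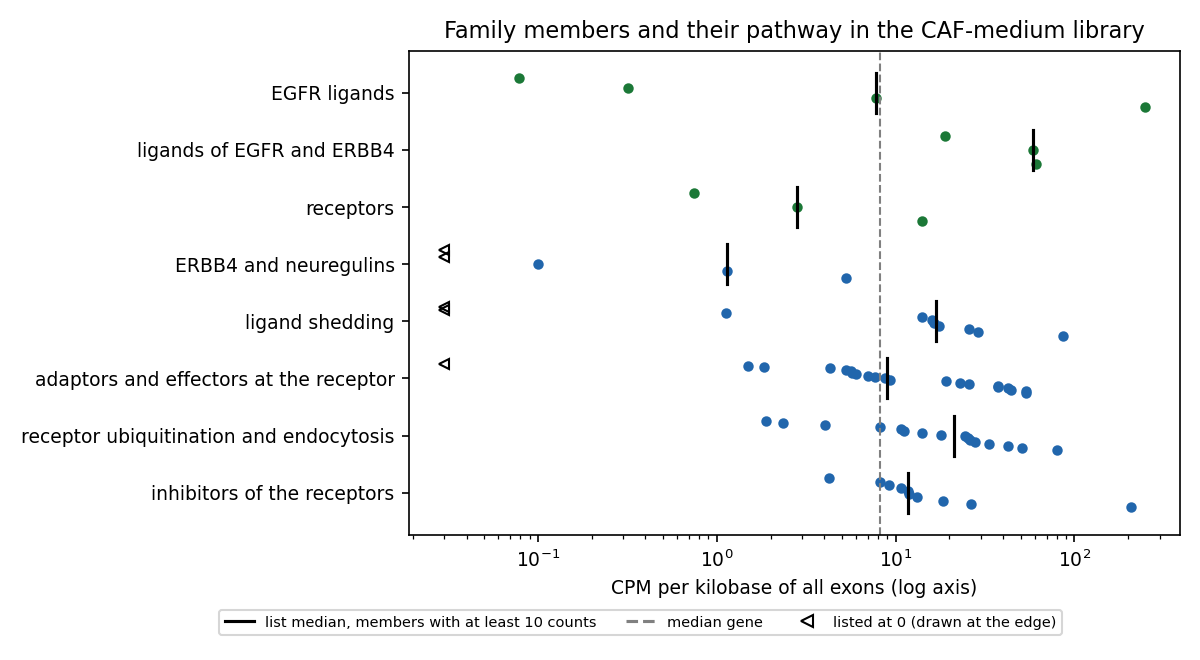
CPM per kilobase of all exons on a log axis for each gene of the family (green) and of its pathway lists (blue), with list medians over members at 10 counts or more (black bars), genes listed at 0 (open triangles at the edge) and the median gene (dashed, 8.14). Areg at 247 and Errfi1 at 209 are the points farthest to the right, and Epgn at 0.078 is the lowest point with a count.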

How the data were processed

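The deposited values are whole-number counts per gene symbol made by the authors, not scaled to a fixed total. The submitters' processing notes list StringTie, HISAT2 (2.1.0) and build mm10 without saying what each was for. How reads were counted, on which strand and against which annotation is not given in the sources used here. Of 2 value columns, 1 was not used, since its name matched no library's labels. Per the labels, 2 ug of total RNA went into each library.

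Counts were divided by 21269197 and multiplied by 1000000 (CPM). CPM was then divided by the length in kilobases of all exons in GENCODE M21, to which 99.6% of entries matched. Poisson and binomial intervals were exact, and covered 95.4% of true values in counts simulated over 11569 genes and over 2000 pairs of genes. Those counts were drawn as Poisson, so the simulation checks the calculation and not the fit of the intervals to these data. Between 10 and 30 counts, 37.6% of entries were multiples of 3 (33.3% of the whole numbers are), so a count may not stand for a single read and the intervals may be too narrow. Shared sequence was searched in 64-base windows every 16 bases. No gene was named by likeness of pattern, which 1 library cannot give.

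Named genes were all 10 members, Erbb4 and the neuregulins, and from each pathway list up to 4 genes with the highest CPM per kilobase and at least 10 counts, plus those under 10. Adam17 and Grb7 were named outside this rule. Members and lists were chosen with earlier results of these data known. Alternatives were other totals, lengths, gene populations and count minimums. Scripts ran in Python 3.11.15 with pandas 2.3.3, scipy 1.17.1, matplotlib 3.10.9 and numpy 2.4.6.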

Additional observations from a re-analysis of the deposited data

How the results depend on the processing

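No paired analysis was possible because 1 library was used, and for the same reason no replicate could be left out and no ratio between media or its scalings was run. Scaling without mitochondrial genes and the 100 highest genes moved the median of the 10 genes from 62.1 to 71.8 CPM. All 9 neighbouring pairs in the order per length kept their order with the longest transcript, and 6 did with the longest coding sequence, an alternative whose ratios were added after seeing the data. There Areg over Hbegf came to 0.856, Hbegf over Ereg to 0.947 and Erbb2 over Tgfa to 0.184. By coding length Erbb2 lay at percentile 43.6 and Tgfa at 83.9, against 65.6 and 48.8 by all exons. Taken among all entries, the percentiles by count of all 9 genes with at least 10 counts moved, that of Egfr from 21.4 to 58.6. The median of Erbb4 and the neuregulins was 1.14 CPM per kilobase, but 0.101 with no minimum and 5.26 with a minimum of 100 counts, where Nrg1 alone remained. For the other 4 pathway lists the minimums had little or nothing to act on. All genes of the endocytosis and inhibitor lists had at least 100 counts, so their medians could not change. In the shedding and adaptor lists the minimums removed only genes listed at 0. With no minimum their medians were 16.2 and 8.72 CPM per kilobase, against 16.9 and 9.01. Depth limits the precision of Epgn, at 3 counts.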
